A study of Mus musculus with 168 samples.

Results

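The EphA receptors and the ephrin-A ligands that bind them were followed through adult mouse brain during hypoxia and reoxygenation. The 8 genes described are the receptors Epha3, Epha4, Epha5, Epha6 and Epha7 and the ligands Efna1, Efna3 and Efna5, and they were chosen from the family with values of these same arrays in view, so that their levels by region are a description without a test. All probe sets annotated to 1 of these genes alone were taken, which gave 24 of the 45037 probe sets analysed, 18 for the receptors and 6 for the ligands, in 8 of 18193 genes. Epha4 had 5 probe sets, Epha3, Epha5 and Epha7 had 4 each, the 3 ligands had 2 each and Epha6 had 1. No filter on low values was set, so all 24 were tested.

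Ephrin-A ligands are held on the cell surface by a lipid anchor, and EphA receptors are tyrosine kinases on the cell they touch. A contact can signal into the receptor cell and also back into the ligand cell, and it most often makes a growing axon or a dendritic spine withdraw. Graded amounts of receptor and ligand guide axons to their targets during development, and in the adult hippocampus and cortex the same proteins act at synapses and between neurons and astrocytes.

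C57BL/6 male mice of 8 to 9 weeks breathed 8% oxygen for 1 h (H1) or 3 h (H3), and further groups were reoxygenated after 3 h of hypoxia for 1 h (R1), 3 h (R3), 6 h (R6), 12 h (R12) or 24 h (R24). The controls were sham-treated mice that by the study's methods spent 3 h in the chamber with room air and then 24 h in the home cage, so that recent handling, the hour of day and hypoxia cannot be told apart at any time point but R24. Each of the 8 groups held 3 mice, and cerebral cortex, hippocampus, striatum, thalamus, midbrain, pons with medulla, and cerebellum of the 24 mice were each measured on 1 array. In bulk tissue of this kind, fewer cells of a type and less RNA per cell cannot be told apart.

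The values are linear array intensities, analysed as log2(intensity + 16), and a fold change on that scale understates the change of dim probe sets. The median intensity of an array was 39.63 to 51.82, and 23.3 to 30.2% of its probe sets lay below 16. For every array, the most similar other array came from the same region, and the markers of each region were highest in that region. The hypoxic response was present over the mean of the 7 regions. Ddit4, a stress-induced inhibitor of mTOR signalling, was higher by 1.53 on the log2 scale at H3 (limma adjusted p = 4.42e-08), and Vegfa, the main angiogenic growth factor, by 0.77 at R1 (adjusted p = 2.3e-05).

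In control mice, Epha4 had the widest span across the brain among the 8 genes at its brightest probe set (1429021_at). Epha4 is the EphA receptor that also binds ephrin-B ligands, and it restrains dendritic spines. The 3 hippocampal control arrays read 923.8, 944.9 and 818.5, and the 3 cerebellar ones 101.7, 83.26 and 75.25. Between these ends, Epha4 averaged 577.2 ± 61.7 in cortex, 539.6 ± 117 in striatum and 524.9 ± 49.6 in thalamus (SD, n = 3 each), and these 3 regions overlapped. It then stepped down without overlap to 310.5 ± 15.8 in midbrain, 164.3 ± 9.93 in pons with medulla and 86.7 ± 13.6 in cerebellum (SD, n = 3 each). The region means spanned 3.16 on the log2 scale, at percentile 99.1 of all probe sets.

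Epha7 and Epha6 shared one feature, a hippocampal level far above every other region. Epha7, which binds several ephrin-A ligands and also occurs as truncated forms that lack the kinase domain, read 389.5, 372.3 and 345.1 in hippocampus at probe set 1443485_at. The next regions for Epha7 were striatum at 146.6 ± 10.1 and cortex at 146 ± 8.54, which overlapped, and pons with medulla was lowest at 50.8 ± 7.09 (SD, n = 3 each). Epha6, the least studied of these receptors, read 209.1, 222.1 and 197 in hippocampus, against 90.8 ± 4.32 in striatum and 35.3 ± 4.02 in cerebellum (SD, n = 3 each). For both genes the lowest hippocampal array exceeded the highest array of the other regions.

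Epha5 and Epha3 were less sharply placed. Epha5, which guides hippocampal and retinal axons along ephrin-A gradients, read 374.8, 166 and 336.9 in hippocampus (1444690_at) and 248.2, 138.1 and 219.3 in cortex. These 2 regions overlapped, and only the cerebellum stood apart for Epha5, with 6.49, 49.37 and 22.46. Epha3, a receptor for ephrin-A5 in retinal and other axons, was the exception among the receptors. Its hippocampal arrays read 92.95, 106.2 and 133.7 (1425575_at) and its cerebellar arrays 98.1, 122.3 and 99.56, with no gap between the 2 regions, while Epha3 in midbrain was lowest at 20.9 ± 2.74 (SD, n = 3).

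The ligands differed from one another. Efna5, which repels EphA-bearing axons, was the only one of the 8 genes highest in cortex, with 466.2, 453.6 and 384.8 (1436866_at). Thalamus followed at 302.9 ± 18.5 and midbrain at 268.2 ± 18.7, each without overlap with the region above (SD, n = 3 each). The hippocampus, where most of the receptors were highest, was among the low regions for Efna5 at 115.3, 124.5 and 169.7. Efna3, which is known to be made by neurons and astrocytes and to bind Epha4, followed the receptors, with 295.4, 313.5 and 252 in hippocampus (1431170_at) and 82.66, 79.75 and 97.88 in cerebellum. The hippocampus and cortex overlapped for Efna3, and its cerebellum lay below all other regions. Efna1, better known from blood vessels, was dim. Its region means at 1416895_at ran only from 13 ± 2.6 in thalamus to 27.9 ± 4.39 in cerebellum (SD, n = 3 each), all neighbours in that order overlapped, and 24.4% of all arrays gave Efna1 a value below 16.

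**Figure D1:**
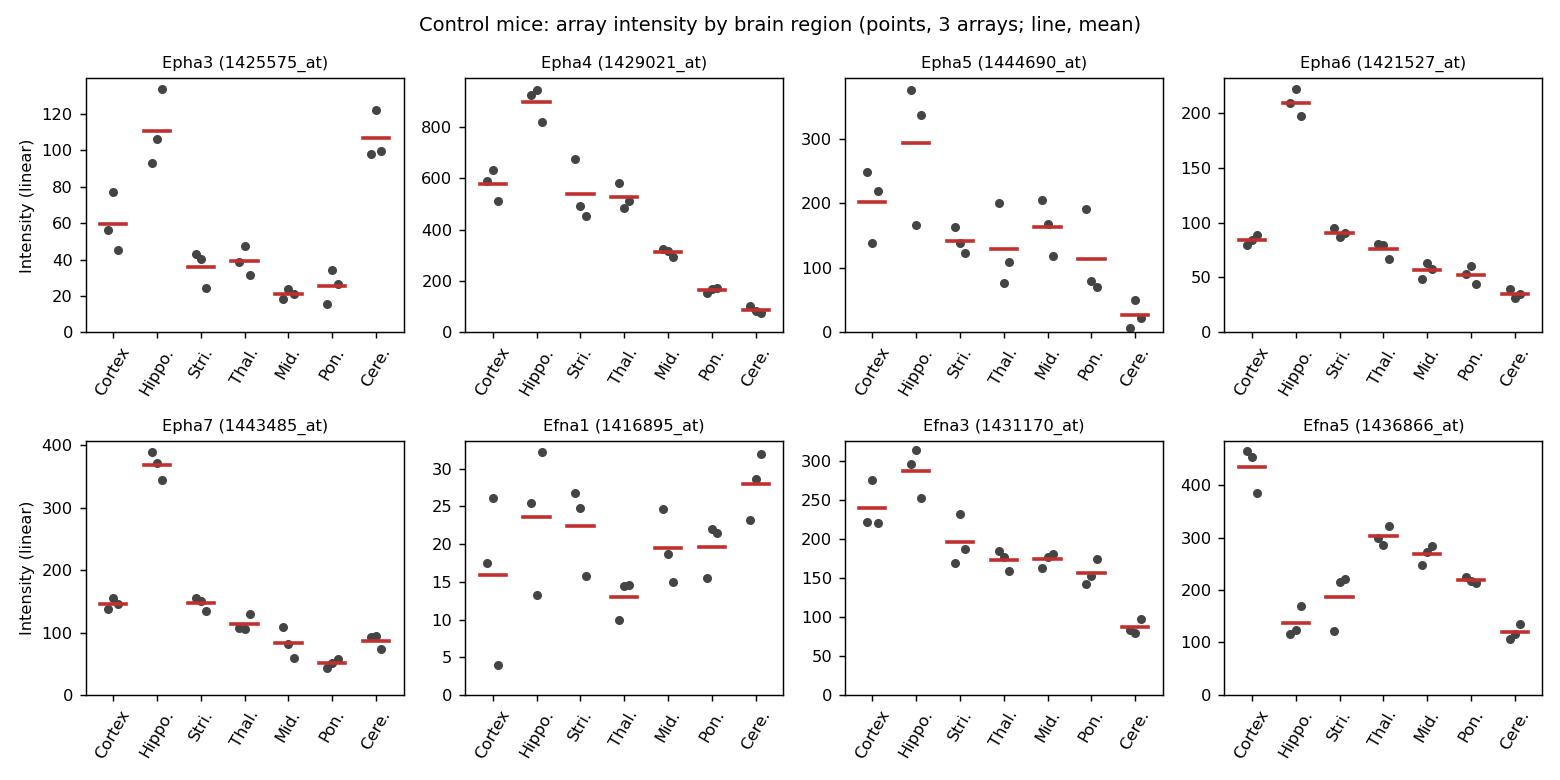
Linear array intensity (y axis, from 0) of the brightest probe set of each of the 8 genes in the 7 regions of control mice (x axis). Points are the 3 arrays of a region and lines are their means. Epha4, Epha6 and Epha7 stand clear in hippocampus, Efna5 is highest in cortex, and Efna1 stays under 33 on every array.

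Over the 8 genes the median span of the region means was 1.96 on the log2 scale, against 0.55 over all 18193 genes. The hippocampus was the highest region for 6 of the 8 genes, where 9.77% of all genes have it highest, and the cerebellum was lowest for 5 of 8, where the share of all genes is 22.9%. By probe set, the hippocampus was highest in 17 of 24 (8.72% of all probe sets) and the cerebellum lowest in 14 of 24 (20.1%). Since the genes were picked with the arrays in view, these shares only describe the choice.

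The highest and lowest regions were kept through the experiment for most probe sets of Epha4, Epha5, Epha6, Epha7 and Efna3. The same region was highest at 8 of 8 time points for 16 of the 24 probe sets (22.6% of all probe sets) and lowest for 15 of 24 (13.5%). For Epha3 1425575_at the cerebellum was highest at 6 of 8 time points, although the hippocampus was highest in control. For Efna1 1416895_at the cerebellum was highest at 5 of 8. Epha4 over all 24 hippocampal arrays ran from 813.8 to 1010 and over all 24 cerebellar arrays from 71.17 to 112.7. Efna5 over all 24 arrays ran from 323 to 466.2 in cortex and from 75.86 to 169.7 in hippocampus. Neither pair of ranges overlapped.

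The probe sets of a gene did not always give the same map. Over all arrays, most followed the brightest probe set of their gene with r between 0.854 and 0.974. The exceptions were Epha3 1426057_a_at (r = 0.639), Epha5 1420557_at (r = 0.46), Efna5 1421796_a_at (r = 0.403) and Efna1 1448510_at (r = 0.349). All 5 probe sets of Epha4 were highest in hippocampus and lowest in cerebellum, with spans of 1.70 to 3.33 on the log2 scale, and all 4 of Epha7 were highest in hippocampus and lowest in pons with medulla, with spans of 2.00 to 2.93. Of the 4 Epha5 probe sets, 3 had spans of 2.24 to 2.99 with the cerebellum lowest and clear of the other regions, while 1420557_at spanned 0.51. Efna5 1421796_a_at spanned 0.47, so that the cortical peak of Efna5 in control rests on 1436866_at. Over the time points, 1421796_a_at was highest in cortex at 6 of 8. For Epha3, 1425574_at and 1426057_a_at were highest in cerebellum and the other pair in hippocampus. These correlations are descriptive, since the arrays share mice and regions.

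**Figure D2:**
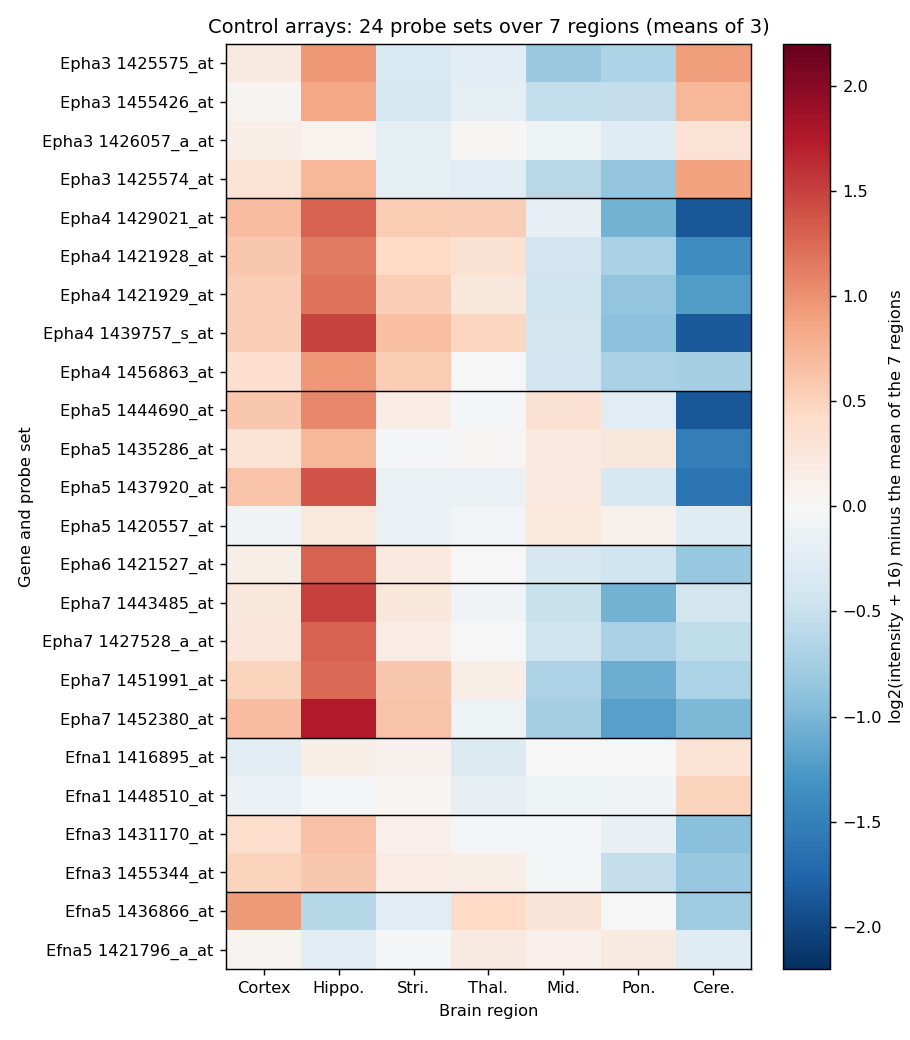
Each row is a probe set of the 8 genes and each column a region, and the colour is the mean log2(intensity + 16) of the 3 control arrays minus the mean of the 7 regions. Red in hippocampus and blue in cerebellum recur in the rows of Epha4, Epha5, Epha6, Epha7 and Efna3, while Efna5 1436866_at is red in cortex.

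Over the 7 region means of control mice, Epha5 and Efna3 had the most similar course (r = 0.979), and Epha6 followed Epha7 (r = 0.917). Epha3 had no such relation to Epha4 (r = 0.0426) and ran against Efna5 (r = -0.53). Efna1 and Efna5 gave the lowest value (r = -0.91), with Efna1 dim throughout. Each of these rests on 7 points that share region and mouse, and no test was made.

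Other genes with a similar course were sought over the 56 means of region and time point. The closest to Epha4 were Stum (r = 0.983) and Grin2b, an NMDA receptor subunit (r = 0.979). For Epha7 they were Cttnbp2, a postsynaptic cortactin-binding protein (r = 0.932), and the transcription factor Rfx3 (r = 0.917), for Epha6 Arpc5, a subunit of the Arp2/3 actin complex (r = 0.963), and the cation channel Trpc4 (r = 0.955). Epha5 was closest to the protocadherin Pcdh8 (r = 0.971) and to Fgf13 (r = 0.962), and Epha3 to Tacc2 (r = 0.924) and the repressor Zbtb18 (r = 0.92). Among the ligands, Efna3 was closest to 2900026A02Rik (r = 0.971) and Prickle2 (r = 0.97), and Efna5 to the myosin motor gene Myo5a (r = 0.925) and Fhod3 (r = 0.918). The dim Efna1 reached only 0.671 with Ehd1 and 0.668 with Slc16a11.

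None of the 13 other Eph and ephrin genes measured with a probe set of their own was highest in hippocampus. Epha8 averaged 131.5 in cerebellum, its highest region, and 13.2 in hippocampus, its lowest. Epha10 was highest in midbrain at 130 and lowest in cerebellum at 28.7. Of the ephrin-B side, Efnb3, a repellent at the spinal midline, was highest in pons with medulla at 731.9, and Ephb6, whose kinase is inactive, was highest in cortex at 302 and lowest in cerebellum at 29.5. Both remaining ephrin-A genes were of modest level, with Efna4 at most 42.8 in cortex and Efna2 at most 73.5 in midbrain.

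The only changes of these genes that passed the test in a single region were falls of Epha7 at R1. Each of the 24 probe sets was tested in each of the 7 regions, and each pair of probe set and region was counted. At R1, 5 pairs were lower and 0 higher with a limma adjusted p under 0.05, and 30 had an unadjusted p under 0.05, against 0.25% of all pairs called lower, 0.158% called higher and 9.3% at the unadjusted threshold. At H1, H3, R3, R6, R12 and R24 limma called 0 of these pairs, with 11, 18, 18, 15, 7 and 9 pairs at an unadjusted p under 0.05, where 5.27, 7.48, 6.46, 4.88, 5.76 and 4.94% of all pairs pass that threshold. Of all pairs on the arrays, 0.0301% were called at H1, 0.311% at H3, 0.00888% at R3, 0.000634% at R6 and 0% at R12 and R24. The median change over the members' pairs at R1 was -0.00378 on the log2 scale, against -0.0137 over all pairs.

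Epha7 fell at both of these probe sets in hippocampus. At 1443485_at the R1 hippocampal arrays read 170.1, 179.6 and 140.8, against 389.5, 372.3 and 345.1 in control. The groups lay far apart, and the change of -1.11 (SE 0.14) on the log2 scale gave a limma adjusted p of 0.00213. The second probe set, Epha7 1451991_at, read 172.7, 159.4 and 123 in R1 hippocampus, against 297.6, 282.7 and 257.7 in control, a change of -0.83 (SE 0.13, adjusted p = 0.00864).

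Epha7 1451991_at was also lower in 3 other regions at R1. In cortex it read 54.85, 93.39 and 68.21 at R1, against 165.7, 203.5 and 120 in control (log2 change -1.02, SE 0.18, limma adjusted p = 0.0168). In thalamus it read 51.77, 53.66 and 63.04 at R1, against 129.6, 117.5 and 120.5 in control (-0.94, SE 0.14, adjusted p = 0.005). In striatum it read 94.34, 87.77 and 87.18 at R1, against 187.5, 194.9 and 140 in control (-0.83, SE 0.15, adjusted p = 0.0136). In each of these regions all 3 R1 arrays lay below all 3 control arrays. Its changes in midbrain (-0.58, adjusted p = 0.293), pons with medulla (-0.50, adjusted p = 0.215) and cerebellum (-0.62, adjusted p = 0.116) did not pass.

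Epha7 1443485_at passed in no region other than hippocampus. In cerebellum it read 55.46, 51.25 and 59.05 at R1, against 92.89, 95.14 and 73.61 in control (log2 change -0.53, limma adjusted p = 0.0887), and in thalamus 83.26, 62.94 and 83.51 at R1, against 107.2, 106.1 and 129.4 in control (-0.50, adjusted p = 0.0867). In cortex the change was -0.47 (adjusted p = 0.156). The R1 arrays of these regions all lay below the controls, and only in pons with medulla did the 2 groups overlap. Taking both Epha7 probe sets over 7 regions, the R1 arrays lay below the control arrays in 13 of 14 pairs, and the changes ran from -1.11 to -0.25. The share over all pairs was 8.41%, but these probe sets were picked out of 4 for this fall, so the count is a description. The 5 calls rest on 3 arrays a group. Without the third R1 array of each region 2 of the 5 passed, without the second control array 2, and with 2 arrays in every group 0.

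**Figure D3:**
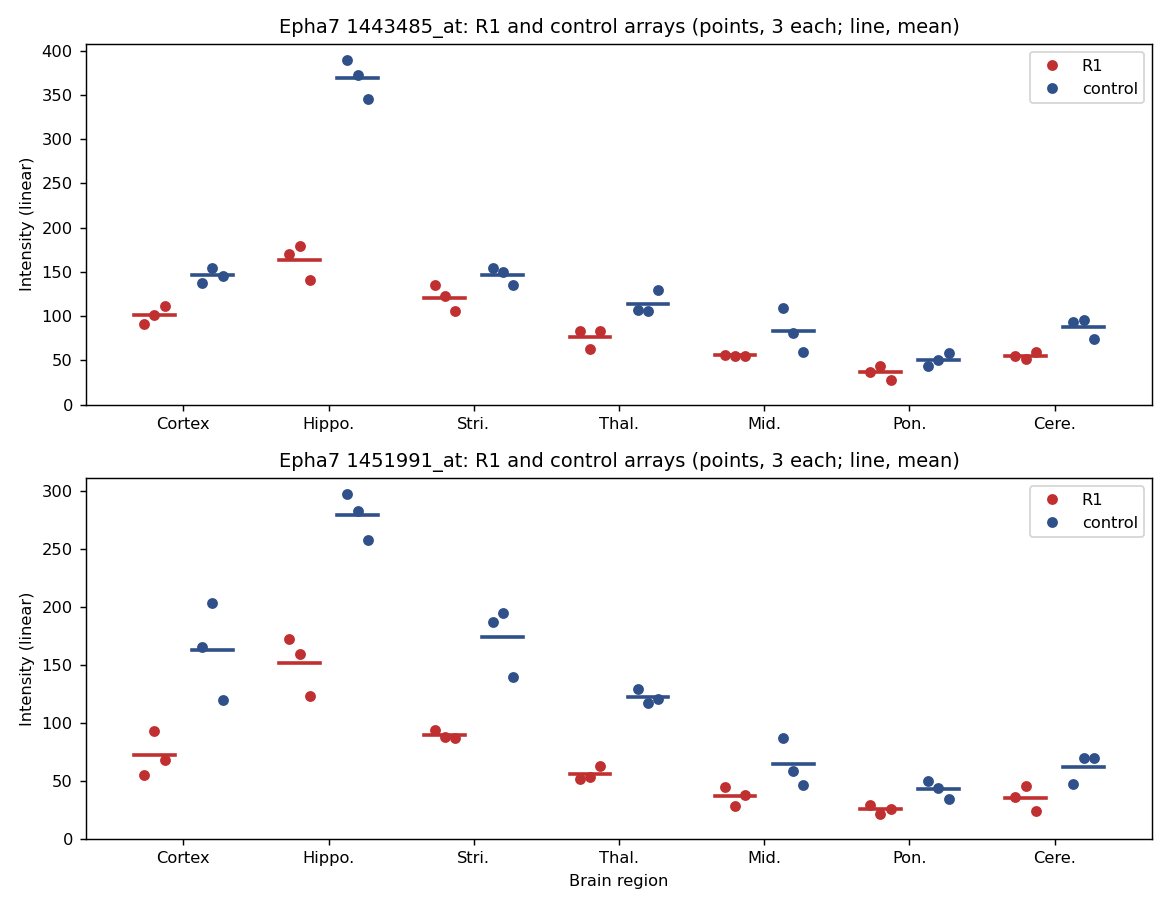
Linear intensity (y axis, from 0) of Epha7 probe sets 1443485_at (upper panel) and 1451991_at (lower panel) in 7 regions (x axis). Red points are the 3 R1 arrays and blue points the 3 control arrays, with lines at their means; in hippocampus the R1 arrays lie between 123 and 179.6 and the control arrays between 257.7 and 389.5.

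The time course of Epha7 in hippocampus was short. At 1443485_at the arrays read 374.9, 319.5 and 326.3 at H1, 286.7, 220.4 and 211.6 at H3, 244.8, 197.3 and 211.3 at R3, and 359.8, 361.9 and 318.4 at R6, against 389.5, 372.3 and 345.1 in control. All 3 arrays of H3 and of R3 lay below the controls, but neither the H3 change of -0.60 (limma adjusted p = 0.0978) nor the R3 change of -0.72 (adjusted p = 0.155) passed. Both passed in the fit of all arrays (adjusted p = 0.0398 at H3 and 0.0161 at R3). By R6 the Epha7 arrays overlapped the controls again. The F-test over the 7 time points called 6 pairs, all of them Epha7. They were 1451991_at in thalamus (adjusted p = 0.00798), cortex (0.00924), striatum (0.0103) and hippocampus (0.0176), and 1443485_at in hippocampus (0.00165) and thalamus (0.0341). The shares of all probe sets called by that test were 1.01% in thalamus, 0.828% in cortex, 0.802% in hippocampus and 0.6% in striatum.

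In cortex and thalamus Epha7 followed a similar course at 1451991_at. The cortical arrays read 172.6, 182.7 and 154.6 at H1, 113, 116.8 and 117.2 at H3, 117.2, 142.4 and 79.39 at R3, and 159.6, 162.7 and 168.3 at R6, beside control arrays at 165.7, 203.5 and 120. The H3 change of -0.42 (limma adjusted p = 0.632) and the R3 change of -0.48 (adjusted p = 0.715) did not pass, although the 3 H3 arrays lay just below the lowest control array. The thalamic arrays read 111.6, 81.68 and 80.7 at H3 and 100, 126.7 and 88.09 at R3, with control arrays at 129.6, 117.5 and 120.5, and at R6 they were at 110.5, 120.3 and 129.1. In both regions the R1 arrays of Epha7 lay below the arrays of all other time points with the exception of the third cortical array at R3, which read 79.39. At R24, 3 cortical arrays of 115.5, 143 and 118.6 gave -0.32 (adjusted p = 1), and 1 of them lay above the lowest control array.

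The other pair of Epha7 probe sets, 1427528_a_at and 1452380_at, did not pass in any region at R1. Their changes ran from -0.31 to 0.28, with the R1 arrays below the controls in 1 of 14 pairs and above them in 2. The gap between the means of the 2 pairs of probe sets, averaged over the 7 regions, was -0.492, -0.427 and -0.413 at R1 on the log2 scale, against 0.138, 0.201 and 0.358 in control. This contrast was formed after the values were seen and was not tested. Which Epha7 transcripts each probe set detects was not analysed here.

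**Figure D4:**
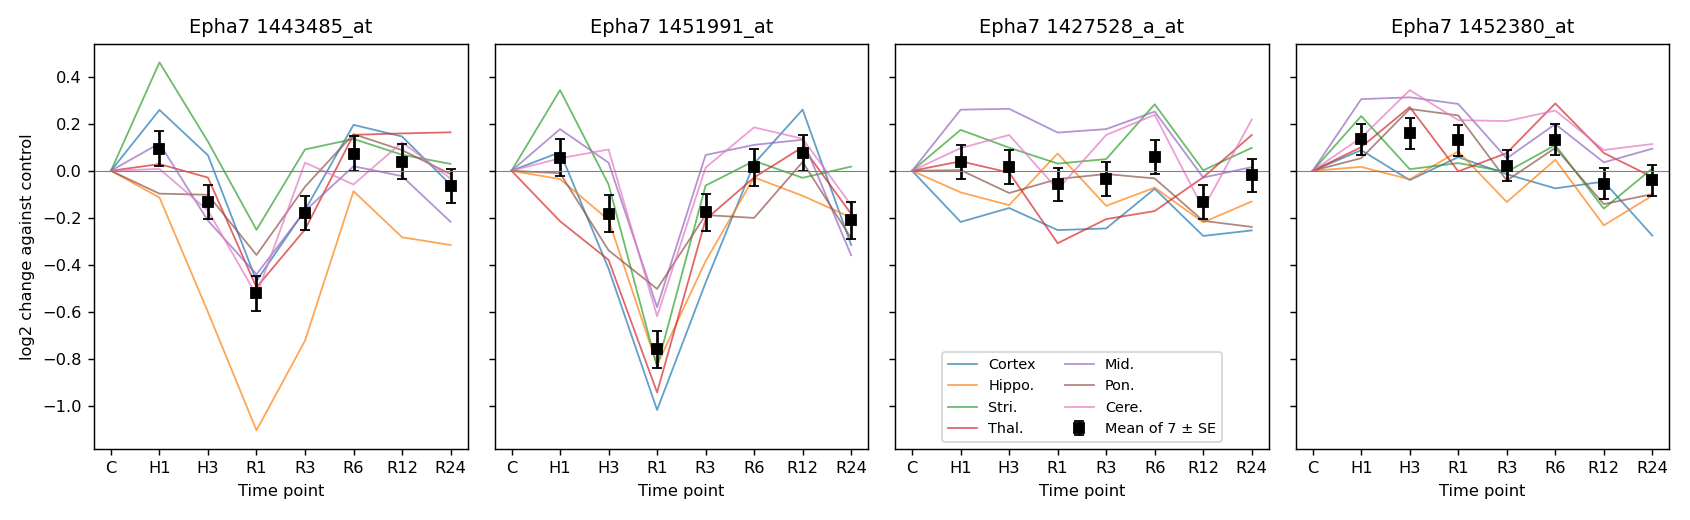
Change from control on the log2 scale (y axis) of the 4 Epha7 probe sets (panels) over the 8 groups (x axis). Coloured lines are single regions, black squares the mean of the 7 regions with its SE. The pair on the left reaches its lowest mean at R1 (-0.52 and -0.76), while the pair on the right stays between -0.31 and 0.28 there.

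Averaging the 7 regions brought out smaller changes of Epha6 and Epha5. The mean of the 7 regions was taken for each time point and replicate number, giving 3 values a group, although the labels do not state that a number marks 1 mouse. At R1, 4 of the 24 probe sets were lower and 0 higher with a limma adjusted p under 0.05, and 8 had an unadjusted p under 0.05, where 3.83% of all probe sets were called lower and 1.65% higher. These 4 were lower in 7 of 7 regions, which the call on the same mean largely fixes (6.47% of all probe sets were lower in 7 of 7).

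Epha7 changed most. At 1451991_at the mean log2 values were 6.242, 6.241 and 6.134 at R1, against 7.05, 7.048 and 6.8 in control (-0.76, SE 0.08, limma adjusted p = 9.91e-06), a fold of 0.59. At Epha7 1443485_at they were 6.602, 6.575 and 6.529 at R1, against 7.133, 7.112 and 7.026 in control (-0.52, SE 0.07, adjusted p = 0.000173), a fold of 0.697. The 2 other Epha7 probe sets gave -0.06 (adjusted p = 0.743) and 0.13 (adjusted p = 0.305). With all arrays and a random block, 1 of them, 1452380_at, was called higher at H3 (0.16, limma adjusted p = 0.0485). At R3 the means of the pair that fell were both at -0.18, and by R6 they were 0.07 and 0.02, without a call at either time. At R24 the mean change was -0.06 at 1443485_at and -0.21 at 1451991_at (limma adjusted p = 0.815), the latter lower in 6 of 7 regions.

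Epha6 was lower by a smaller amount. Its mean log2 values were 6.293, 6.332 and 6.313 at R1, against 6.528, 6.559 and 6.477 in control (-0.21, SE 0.04, limma adjusted p = 0.00509), a fold of 0.865. At R6 they were 6.249, 6.229 and 6.292, a change of -0.26 (SE 0.04, adjusted p = 0.0275), in 7 of 7 regions (2.72% of all probe sets at R6) and at a time when 0.0155% of all probe sets were called lower. In hippocampus, its highest region, Epha6 read 157, 134 and 171.8 at R6, against 209.1, 222.1 and 197 in control, and in cortex 62.8, 71.97 and 61.62 at R1, against 79.83, 84.16 and 88.32 in control. In striatum the R6 change of Epha6 was -0.34. At the remaining time points the mean of the 7 regions for Epha6 was also below control, without a call. The changes were -0.13 at H1, -0.06 at H3, -0.13 at R3, -0.12 at R12 and -0.16 at R24. All of these changes were set against the same 3 control values. None of the single regions passed for Epha6, the R6 change in hippocampus of -0.41 included (limma adjusted p = 0.935). With 2 values a group, in place of 3, the adjusted p for Epha6 was at most 0.201 at R1 and at most 0.802 at R6, and neither call was kept.

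Epha5 was lower at 1 of its 4 probe sets. At 1435286_at the mean log2 values were 7.111, 6.972 and 7.05 at R1 (-0.24, SE 0.05, limma adjusted p = 0.00618) and 6.921, 6.908 and 6.965 at R3 (-0.36, adjusted p = 0.00153), against 7.279, 7.344 and 7.239 in control. At H3 the change was -0.19 (adjusted p = 0.0482), a call that was lost with median centring and with a pseudocount of 1. The R1 and R3 changes were negative in 7 of 7 regions, as were 3.23% of all probe sets at R3. The shares of all probe sets called lower were 2.16% at H3 and 0.426% at R3, where this was the only call among the 24. In cortex, Epha5 1435286_at read 139.3, 121 and 126.6 at R1 and 113, 132 and 119.8 at R3, against 145.1, 209.5 and 183.4 in control, changes of -0.42 (limma adjusted p = 0.127) and -0.49 (adjusted p = 0.257) in which no array overlapped the controls. The 3 other Epha5 probe sets had R1 changes of 0.08, 0.03 and -0.05 that did not pass. With 2 values a group the R1 call of Epha5 was kept without replicate 1 and lost without replicate 2 or 3, and the H3 and R3 calls were lost in all 3 cases.

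**Figure D5:**
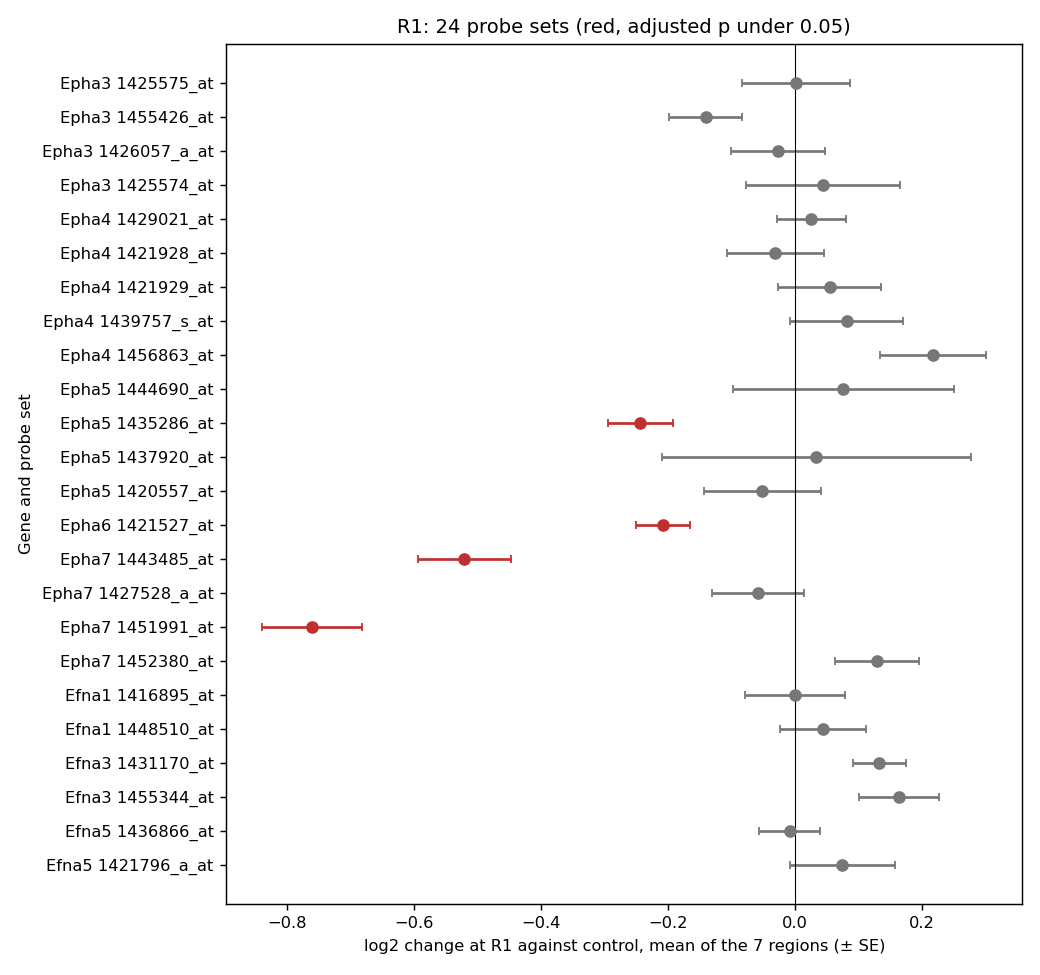
Change at R1 against control on the log2 scale (x axis), as the mean of the 7 regions with its SE, for the 24 probe sets (y axis). Red marks the 4 with a limma adjusted p under 0.05, which are both lower Epha7 probe sets (-0.76 and -0.52), Epha5 1435286_at (-0.24) and Epha6 (-0.21).

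Epha6 and Epha7, both highest in hippocampus and lower at R1, are shown by the 250 bases before their start sites in the RefSeq annotation of GRCm38.p6, read 5′ to 3′ along the gene. Capitals mark the GC box GGGCGG on either strand, which is CCGCCC on the opposite one. The Epha7 window, 1 of 2 annotated, is at chr4:28812881-28813130 on the plus strand and the Epha6 window at chr16:60605532-60605781 on the minus strand.
Epha7: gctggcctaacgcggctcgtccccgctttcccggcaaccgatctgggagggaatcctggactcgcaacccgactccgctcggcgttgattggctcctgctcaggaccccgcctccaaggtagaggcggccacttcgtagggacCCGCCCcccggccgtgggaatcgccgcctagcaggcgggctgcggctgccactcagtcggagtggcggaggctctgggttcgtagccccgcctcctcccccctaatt
Epha6: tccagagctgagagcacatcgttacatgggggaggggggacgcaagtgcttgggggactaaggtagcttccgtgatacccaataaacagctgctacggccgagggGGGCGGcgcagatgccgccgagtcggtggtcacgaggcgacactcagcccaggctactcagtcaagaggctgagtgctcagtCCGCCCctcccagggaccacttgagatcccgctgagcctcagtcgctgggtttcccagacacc
Of the 11 promoter windows of the 8 genes, 10 held GGGCGG, all but that of Epha3, where 32.7% of 32851 promoters of this length do. The core of the hypoxia response element, ACGTG, was in 1 of the 11, that of Epha4 (16.6% of all promoters), and TGACG, the core of the cAMP response element, was likewise found for Epha4 alone (17.8%). Both strands were searched, and ACGTG and TGACG can overlap in TGACGTG. Neither was present in the windows of Epha6 and Epha7. A match is a run of letters and not a known site.

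The other genes gave no call in any single region. Over Epha3, Epha4, Epha5, Epha6 and the 3 ligands, limma called 0 of 980 pairs of probe set, region and time point. Of all pairs on the arrays, limma called 0.25% lower and 0.158% higher at R1, and at most 0.311% at any other time point. The 0 of 980 therefore lies near the share of all pairs. Among the 980, 77 had an unadjusted p under 0.05. Of all pairs on the arrays, 4.88 to 9.3% pass that threshold, depending on the time point. Epha4, the most strongly placed gene in control brain, had mean changes between -0.05 and 0.11 on the log2 scale at 1429021_at over the 7 time points, and none of its probe sets was called. The other Epha4 probe sets reached 0.26 at H1 at 1439757_s_at (limma adjusted p = 0.405) and 0.26 at H3 at 1456863_at (adjusted p = 0.103, higher in 7 of 7 regions). For Epha4 as a whole, 20 of its 245 pairs had an unadjusted p under 0.05, beside the same shares of all pairs. In hippocampus Epha4 read 939.4, 1010 and 916.9 at R1, against 923.8, 944.9 and 818.5 in control (0.09, limma adjusted p = 0.855). These arrays overlapped, at the same time and in the same region in which Epha7 fell.

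Of the ligands, Efna3 came nearest to a call. Its mean log2 values at 1431170_at were 7.72, 7.758 and 7.71 at R1, against 7.538, 7.666 and 7.585 in control (0.13, SE 0.04, limma adjusted p = 0.0704), and 1455344_at gave 0.16 (adjusted p = 0.151). With quantile normalization (0.15, adjusted p = 0.0472), median centring (0.18, adjusted p = 0.0464), a pseudocount of 32 (adjusted p = 0.0443) or only bright probe sets (adjusted p = 0.0358), Efna3 1431170_at was called higher. In striatum Efna3 1431170_at read 263.4, 285.5 and 271.3 at R1, against 168.7, 231.2 and 187.2 in control, all above the controls but without a call (0.46, adjusted p = 0.416). The F-test over the 7 time points on the mean of the regions did call both Efna3 probe sets (adjusted p = 0.0104 and 0.0191). That test called 8 of the 24, where 11.7% of all probe sets were called, and the others were Epha3 1455426_at, Epha5 1435286_at, Epha6, both lower Epha7 probe sets and Efna5 1436866_at. Efna5 gave -0.18 at R3 (adjusted p = 0.0828), and in cortex, its highest region, it read 323, 332.2 and 330.7 at R3, against 466.2, 453.6 and 384.8 in control (-0.38, adjusted p = 0.524). The mean of Efna5 at R3 was called lower with only bright probe sets (limma adjusted p = 0.0391), a replicate block (0.0487) or all arrays with a random block (0.0324). Efna1 gave no call, with mean changes between -0.04 and 0.17 at 1416895_at and a change of -0.19 at H3 at 1448510_at (adjusted p = 0.151). The probe sets of Epha3 disagreed at H3, with 0.24 at 1425575_at (adjusted p = 0.168) and -0.20 at 1455426_at (adjusted p = 0.0606). With the replicate block both were called, 1425575_at higher (limma adjusted p = 0.0435) and 1455426_at lower (0.0247). The latter was also called lower with a pseudocount of 32 (0.0481) and with all arrays and a random block (0.0106).

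Whether a change differed between regions was tested in one fit of all arrays. Limma called 0 such differences for the 24 probe sets at the 7 time points, and 6 had an unadjusted p under 0.05, 3 of them at R1. Of all probe sets, 0.135% were called at R1, 0.0222% at H3, 0.00666% at R3, 0.00222% at H1 and at R6, and 0% at R12 and R24. The strongest was that of Epha7 1443485_at at R1 (limma adjusted p = 0.386), so the difference between its fall in hippocampus and its changes elsewhere did not pass the test.

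Cell type markers were read beside the fall of Epha7. The 7 neuronal markers summed to 14220 to 14980 in R1 hippocampus, against 13830 to 14180 in control, to 16880 to 17470 in R1 cortex, against 16020 to 17250 in control, to 14330 to 14380 in R1 striatum, against 12500 to 13560 in control, and to 12260 to 12790 in R1 thalamus, against 11730 to 12440 in control. The 5 hippocampal markers summed to 1674 to 1903 in R1 hippocampus, against 1846 to 2038 in control, and to 676.4 to 701.7 in R1 striatum, against 810.9 to 942.7 in control. The sums of neuronal markers had no lower range at R1 than in control in these 4 regions. Those of hippocampal markers were lower in striatum without overlap, and in hippocampus their range lay lower with overlap. In thalamus, the 5 choroid plexus markers summed to 700.1 to 6452 at R1, against 551.4 to 766.9 in control. Of 40 cell type and 32 region markers, limma called 0 at R1 in the mean of the 7 regions, where 3.83% of all probe sets were called lower and 1.65% higher. The part of tissue composition in the Epha7 result was not tested.

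The 13 other Eph and ephrin genes gave 0 limma calls in single regions or in the mean of the regions at any time. At R1, 3.83% of all probe sets were called lower and 1.65% higher in the mean of the regions. In single regions 0.25% of all pairs were called lower and 0.158% higher, so 0 calls in 13 genes lies near these shares. The median change of the 13 genes at R1 in the mean of the regions was 0.0406 on the log2 scale. Of 25 genes that carry the Eph signal into the cell, 3 were lower and 0 higher at R1 in the mean of the regions (3.83% and 1.65% of all probe sets), with a median of -0.046. They were Nck1, an adaptor that binds activated Eph receptors (-0.40, adjusted p = 3.21e-05), Rasa1, the Ras GTPase-activating protein (-0.25, adjusted p = 0.000511), and Kalrn, a guanine nucleotide exchange factor found in dendritic spines (-0.20, adjusted p = 0.0161). At R3, Vav3, another such exchange factor, was lower (-0.35, adjusted p = 0.00417) along with Kalrn and Rasa1, and Ptpn11, the SHP2 phosphatase, was higher (0.16, adjusted p = 0.0367). In single regions at R1, limma called 3 of 175 pairs of these genes, all lower (0.25% of all pairs), namely Nck1 in striatum (-0.75, adjusted p = 0.0275) and cerebellum (-0.45, adjusted p = 0.0205) and Rasa1 in striatum (-0.49, adjusted p = 0.0317).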

How the data were processed

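The authors deposited the linear intensity values of 45101 probe sets on all Affymetrix Mouse Genome arrays. The mean without the highest and lowest 2% is 124.6 to 124.7 on every array. The submitters' notes name GCOS 1.3; the methods describe GCRMA and division by the sham mean, which these values do not show, and further steps are not given in the sources used here. The 64 control probe sets were left out, leaving 45037, of which 34945 name 1 gene, 932 several and 9160 none in the platform annotation.

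Files were read with data.table (version 1.17.8). Separate limma models (version 3.58.1, under R 4.3.3) were made for the 7 regions on log2(intensity + 16), with 8 group means over 24 arrays, and each time point was set against control by the moderated test. P values were adjusted by Benjamini-Hochberg over the 45037 probe sets, with a threshold of 0.05. The mean of the 7 regions was fitted likewise, and differences between regions were F-tests over all arrays, where a random block joined arrays of 1 time point and number (correlation 0.0369). No pair of arrays held near-identical values (0 pairs). The number of arrays, 3 a group, limits the precision. In a single region the spread is that between mice, and in the mean of the regions this assumes that a number marks 1 mouse.

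Genes named are the 8 members at every probe set, the 2 closest genes to each by Pearson r, and up to 4 called genes of a list; other names serve the levels of the family and the check of the response. The brightest probe set on average stood for a gene in counts by gene. Members and lists were chosen with earlier results of these data known. The scripts were tested on simulated data. Alternatives were quantile normalization, median centring, pseudocounts of 1 and 32, only bright probe sets, trend and robust settings of limma, a replicate block, a fit of all arrays, the methods' t-test and leaving out arrays.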

Additional observations from a re-analysis of the deposited data

How the results depend on the processing

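The 5 lower calls in single regions at R1, all of Epha7 in the main fit, became 0 when the methods' t-test was itself adjusted over all probe sets. Without adjustment, 31 pairs had a t-test p under 0.05. The paper adjusted its one-way test and followed it with the t-test. In that order 7 pairs of either direction passed at R1, 3 at H3 and 2 at R3. The 5 lower calls became 7 with only bright probe sets and 7 in the fit of all arrays, by Epha7 in further regions. When arrays were left out they ran from 0 to 5. Without the first control array of each region, they included Epha5 1435286_at in cortex (-0.55, limma adjusted p = 0.0444). With 2 arrays in every group no call was left, and fewer arrays lower the power. Calls that were higher at R1 went from 0 to 1 in the fit of all arrays, which was Efna3 in striatum (0.46, adjusted p = 0.0213), and stayed at 0 to 0 when arrays were left out. The 0 calls in single regions at the other 6 time points became 1 with only bright probe sets, 1 with the trend and robust options and 2 in the fit of all arrays, with 0 to 1 when arrays were left out; these were Epha7 in hippocampus at H3 and, in the fit of all arrays, also at R3. The 6 calls of the F-test became 11 with only bright probe sets and 0 to 0 with arrays left out. In the mean of the 7 regions, the 4 calls at R1 became 5, by a higher Efna3, with quantile normalization, median centring, a pseudocount of 32, only bright probe sets or the replicate block, and 2 to 3 with arrays left out, and the 3 calls at other time points became 1 with a pseudocount of 1, 6 with all arrays and a random block, and 0 to 0 with arrays left out. Both Epha7 probe sets kept their R1 call in the mean of the regions in 11 of 11 alternatives, with adjusted p values from 5.81e-11 to 0.0334 for 1443485_at and 2.05e-17 to 0.0121 for 1451991_at. The cause of these shifts was not tested.

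Arrays of the same replicate number were only weakly alike. The mean correlation of same-numbered deviations within a region was 0.0585 to 0.11, with pairs down to -0.129. Across regions within a time point the mean was 0.0246 to 0.0658 for the same number and -0.0329 to -0.0123 for other numbers. For Epha5 1444690_at, however, replicate 1 had the highest mean of the 7 regions in every group. In control it was 7.41 on the log2 scale, against 6.955 and 7.023. The main fits in single regions and of the mean did not include the number. With the replicate block, calls in single regions at the other 6 time points became 2 (0 without), Epha7 in hippocampus at H3 (adjusted p = 0.00946) and R3 (0.0211), and those of the mean of the regions 7 (3 without), Epha4 1456863_at at H3 (0.0365) among them, while the R1 calls in single regions were 5 as before. Of the values compared one by one, 895 stayed on their side of the threshold or, for spans of control levels, within their spread of the main value. Most of these had no call in the main fit to lose. Changes without a call could switch sign among these. Epha7 1427528_a_at in hippocampus at R1, for one, ran from -0.098 to 0.18. A further 48 lost a call, 5 gained one and 12 spans of control levels moved. The calls that could be lost were 5 in single regions, over 24 alternatives each. In the mean of the regions they were 4 at R1 and 3 at other time points, over 11 alternatives each. The cortical R1 call of Epha7 1451991_at was lost in 9 of 24. Of the changes with a call in either setting, 0 reversed. Low signal limits Efna1, whose second probe set lay below 16 on 85.7% of arrays. It also limits Epha4 1456863_at, below 16 on 52.4% of arrays, Epha3 1425574_at on 40.5% and Efna5 1421796_a_at on 20.8%.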

Other observations

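Other genes of axon guidance, outside the Eph and ephrin family, were read in the same way, from a list of 34. In the mean of the 7 regions at R1, limma called 4 lower and 0 higher (3.83% and 1.65% of all probe sets), with a median of -0.0243 on the log2 scale. Nrp1, the semaphorin and VEGF co-receptor, changed most (-0.36, adjusted p = 0.00225) and was also lower at R3 (-0.29). The others at R1 were the netrin Ntn4 (-0.21), the netrin receptor Unc5c (-0.13) and the semaphorin receptor Plxnb1 (-0.12). Dcc, another netrin receptor, was lower at R6 (-0.28). In single regions at R1, limma called 3 of 238 pairs, all lower (0.25% of all pairs), namely Nrp1 in striatum (-0.86), Plxnb2 in cerebellum (-0.48) and Unc5c in thalamus (-0.34). No difference between these genes and the EphA receptors was tested.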
